A study of Saccharomyces cerevisiae with 28 samples.

Results

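The 26S proteasome is the protease that degrades ubiquitin-tagged proteins, and 32 of its subunit genes plus RPN4, the transcription factor of these genes in baker's yeast, are described here. The 33 genes were taken from a named list by their symbol in the array's annotation. All 33 were found among the 5449 Saccharomyces cerevisiae genes measured under 1 symbol, each read by 1 probe set, and none was lost to a filter. The 33 probe sets are not of the type that the array's suffixes mark as also reading related sequences.

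Poly(A) RNA came from 2 baker's yeasts, named LS and HS in the labels, after 60 min of fermentation in a medium called LF with 0, 5, 10, 20, 30, 40 or 50% sucrose. Neither the yeasts' names, their genotypes nor the medium is explained in the sources used here. Each of the 14 groups of yeast and sucrose had 2 replicate arrays, 28 in all, and their number limits the precision of every value. Nothing in the labels says that replicates were separate cultures, so p-values measure the spread between these arrays, which may be technical.

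The proteasome has a barrel-shaped core particle that cuts proteins, capped by a regulatory particle that binds, unfolds and feeds them in. The core is built of outer alpha rings, which gate the channel, and inner beta rings, which hold the peptidase sites. The regulatory particle has a base, with a ring of ATPases that unfold substrates, and a lid that removes ubiquitin. In baker's yeast Rpn4 activates the subunit genes and is itself a very short-lived substrate of the proteasome, a feedback loop known from protein and heat stress.

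A value is the deposited ratio of a probe set on an array, on a linear scale, scaled by the authors so that each gene's usual value is near 1. It compares arrays within a gene and says nothing of which gene is more abundant. A difference is on the log2 scale and sets the mean of 2 arrays against the mean of the 6 arrays of the same yeast at 5, 10 and 20% sucrose, called the baseline here. It is given ± SE with a 2-sided adjusted p from limma, fitted to 5498 probe sets on all 28 arrays, and is called, or said to have risen or fallen, at an adjusted p under 0.05. Comparisons of 1 yeast share their baseline arrays and are not independent of each other.

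On 6 LS arrays, replicate 2 of each concentration except 40%, the probe sets of fission yeast (S. pombe), which serve as a background, had a median ratio of 1.51 to 13.7, against 0.119 to 0.994 on the other 22. Log2 ratios of S. cerevisiae probe sets were also spread widely on the 6, with an interquartile range of 2.09 to 2.62, against 0.729 to 2.14 on the rest. The median ratio of the subunit genes lay below that of the first replicate on each of these 6 arrays. In LS at 0, 5, 10, 20 and 30% the median log2 difference of the second from the first replicate over the 33 genes was -0.78, -1.10, -1.51, -0.21 and -0.62. Over all probe sets the replicates of these groups correlated at -0.204, -0.0166, -0.222, 0.0192 and 0.0152. The correlation was 0.87 in LS at 40%, 0.501 in LS at 50% and 0.471 to 0.725 in HS. This limits every LS difference that uses all arrays. Both LS arrays at 40% belong to the 22, and the counts below are also given without the 6 arrays. Without them LS has 3 baseline arrays, and every LS group except that at 40% has a single array. The spread behind each SE in that fit comes from the HS pairs and the LS pair at 40%. It is assumed to hold for the single LS arrays, also where HS is compared with LS.

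**Figure D1:**
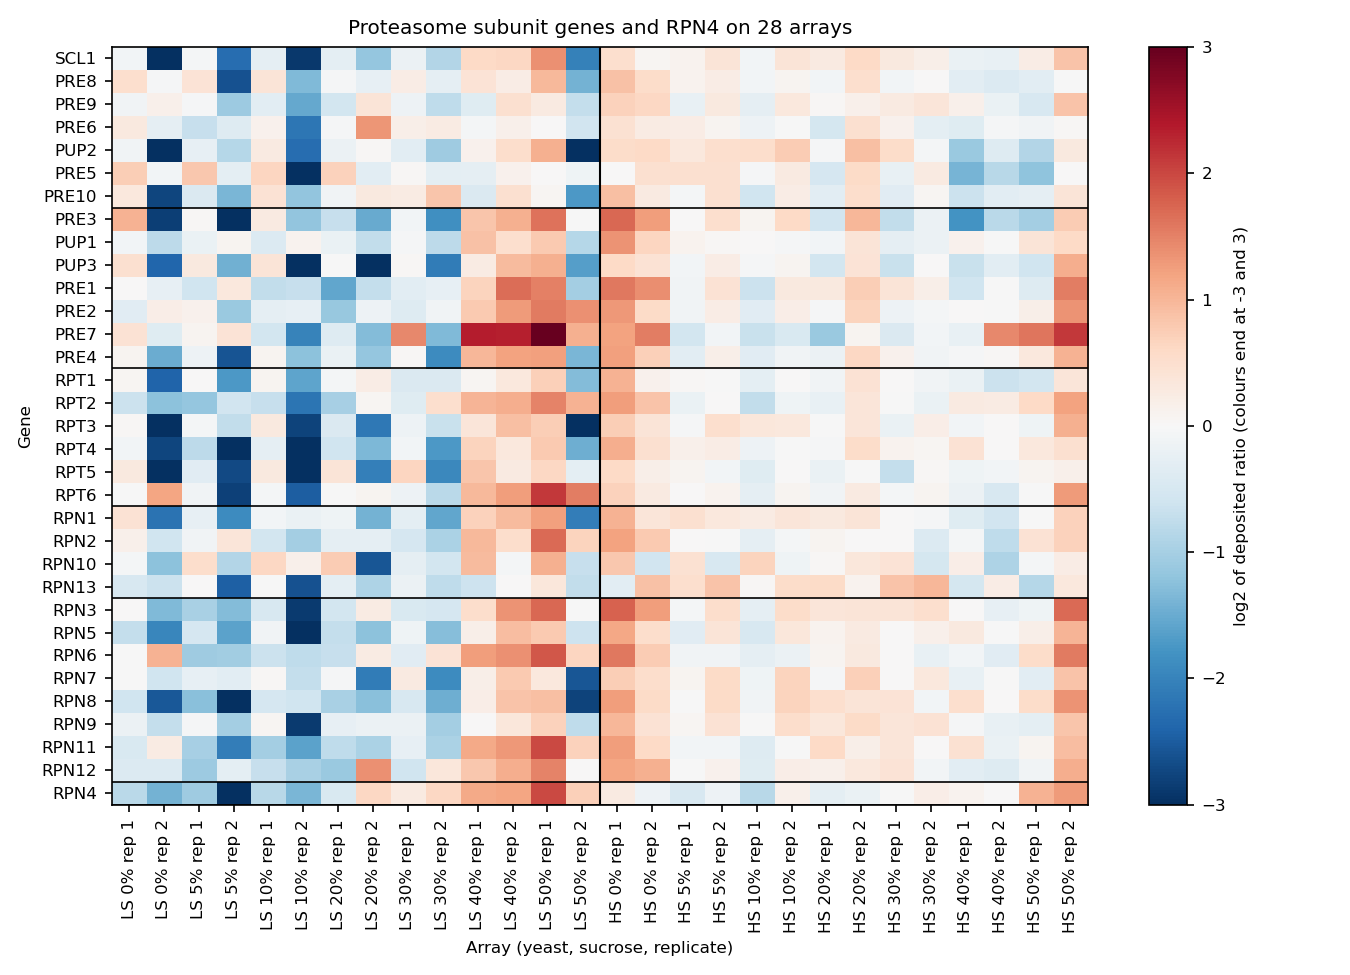
Log2 of the deposited ratio (colour) for the 33 genes (rows, ordered by role) on each of the 28 arrays (columns, LS left of the line, HS right). Both LS arrays at 40%, the first LS array at 50% and both HS arrays at 0% are mostly red, and the second LS replicates other than at 40% are mostly blue.

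RPN4 rose in LS at high sucrose. Its ratio was 0.574 and 0.377 on the 2 LS arrays without sucrose, and its baseline ran from 0.111 through a median of 0.521 to 1.55. At 30% sucrose the RPN4 ratio was 1.20 and 1.53, at 40% it was 2.18 and 2.27, and at 50% it was 3.93 and 1.63. Both arrays at 40% and both at 50% thus lay above all 6 baseline arrays, whereas those at 30% overlapped them.

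The log2 difference of RPN4 in LS was 2.20 ± 0.56 at 40% (4.58-fold, adjusted p = 0.00991) and 2.38 ± 0.56 at 50% (5.21-fold, adjusted p = 0.00503). It was 1.48 ± 0.56 at 30% (adjusted p = 0.265) and -0.06 ± 0.56 without sucrose (adjusted p = 0.993). The call at 40% held without the 6 arrays, at 1.94 ± 0.32 (adjusted p = 0.000385). At 50% that fit has a single LS array, and the difference was 2.75. Both calls were lost when LS was fitted alone or when the compared groups alone were in the fit.

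In HS the RPN4 ratio was highest on the 2 arrays at 50%. It was 2.06 and 2.43 there, against a baseline of 0.561, 0.841 and 1.11 (lowest, median and highest). At 40% sucrose it was 1.08 and 1.005, at 30% it was 0.995 and 1.15, and without sucrose it was 1.21 and 0.901. The 50% arrays did not overlap the baseline, yet the log2 difference of 1.46 ± 0.56 was not called on all arrays (adjusted p = 0.0849). It was called without the 6 LS arrays, where the same difference had an SE of 0.29 (adjusted p = 0.0014).

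**Figure D2:**
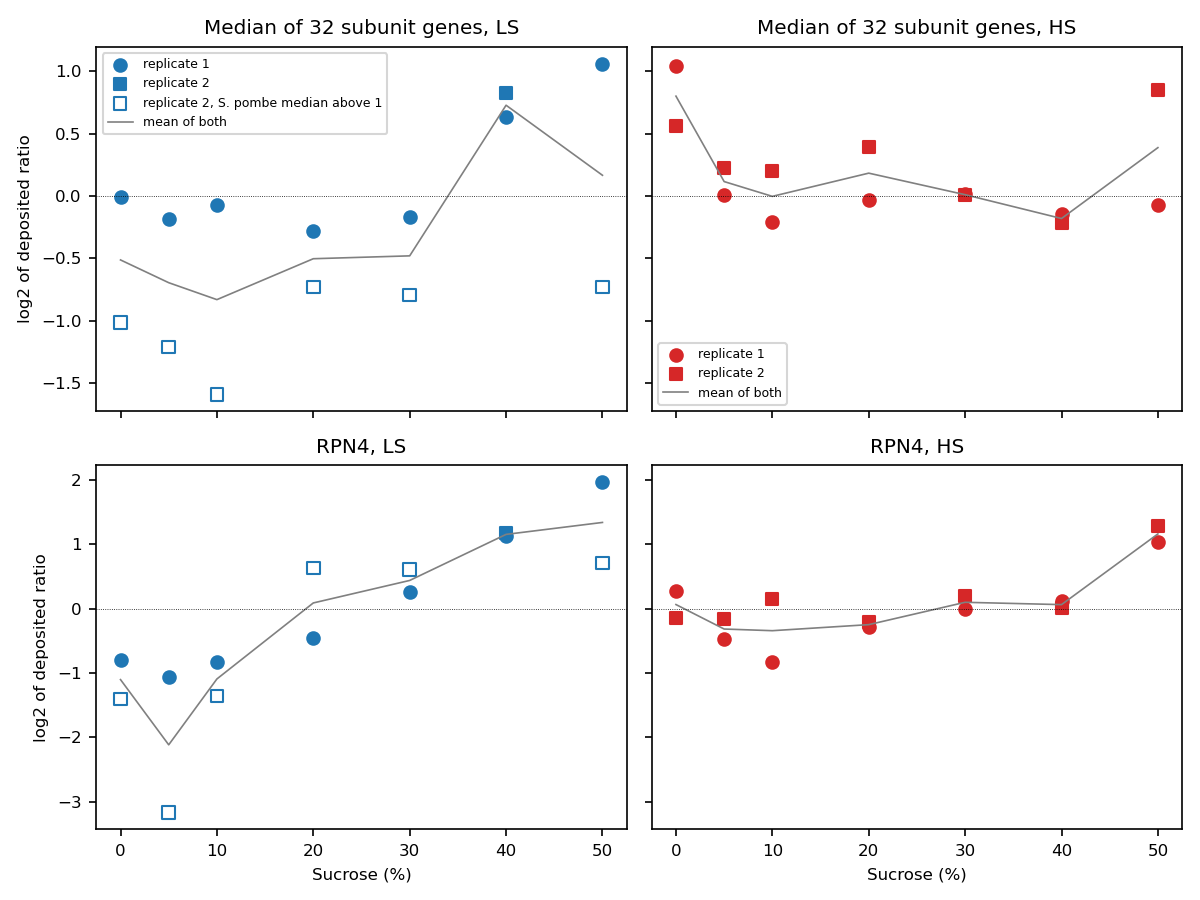
Log2 of the deposited ratio (y axes) against sucrose in % (x axes), as the median of the 32 subunit genes on each array (top) and for RPN4 (bottom), in LS (left) and HS (right); points are arrays, open squares the 6 LS arrays with high S. pombe signal, and lines join means of both replicates. RPN4 is above 1 on the log2 scale on both LS arrays at 40% and both HS arrays at 50%, while the subunit median is highest at 40% and on 1 array at 50% in LS and at 0% and on 1 array at 50% in HS.

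At 40% sucrose in LS, 8 of the 33 genes rose and 0 fell. This is 24.2% of the members, where 9.73% of all probe sets were called higher and 8.17% lower. All 33 differences lay above 0, with a median of 1.61 on the log2 scale, while the median of all probe sets was -0.25, so that the members stood 1.86 above it. When the 6 arrays were left out 17 rose, which is 51.5% where 22% of all probe sets were called higher. There the members' median was 0.97, and 30 of 33 lay above 0. The ratios of both arrays exceeded all 6 baseline arrays for 20 of the 33 genes, against 14.7% of all probe sets.

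No member was called when LS was fitted alone or when the compared groups alone were in the fit, and 4 were against 5% sucrose alone. The share of all probe sets called in these fits is not given here. These counts therefore do not set the members apart from other genes. The call count changed whenever any 1 array was left out, and it rested on both 40% arrays. It was 1 without the first and 0 without the second, although the median difference stayed at 1.76 and 1.34. It was also lower, at 5, without any 1 of the 12 HS arrays at 0 to 40% or without the first LS array at 20%. It reached 11 when the first LS array at 5 or 10%, or either LS array at 50%, was left out.

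At 50% sucrose in LS, 9 genes rose and 0 fell, 27.3% of the members where 11% of all probe sets were called higher and 11.1% lower. They were the 8 genes called at 40% and RPN2. All 9 calls were lost, with 0 called, when LS was fitted alone or when the compared groups alone were in the fit. The share of all probe sets called in these fits is not given here either. The members' median difference was 0.84, which is 1.10 above that of all probe sets, and 29 of 33 lay above 0. The 2 arrays disagreed, however. All 33 genes were lower on the second array, one of the 6, than on the first, with a median log2 difference of -1.64.

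Without the first LS array at 50% the median was -0.04, and 2 genes rose and 2 fell. Without the second it was 2.0, and 10 genes rose. Without all 6 arrays 17 rose, where 22.9% of all probe sets were called higher, and the median was 1.33. For 8 of 33 genes both arrays exceeded the baseline, against 11.4% of all probe sets.

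Among the beta ring genes PRE7 had the largest difference at 40%. PRE7 encodes a beta subunit without a peptidase site. Its ratio in LS was 5.11 and 5.03 at 40% and 8.35 and 2.08 at 50%, against a baseline from 0.248 to 1.33 with a median of 0.728. At 30% its 2 arrays gave 2.70 and 0.397 and without sucrose 1.34 and 0.78. The groups at 40 and 50% lay wholly above the baseline, while of the arrays at 30% one lay above it and the other inside it.

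PRE7 differed by 2.97 ± 0.71 at 40% (7.81-fold, adjusted p = 0.00657) and by 2.68 ± 0.71 at 50% (6.42-fold, adjusted p = 0.0102), and without the 6 arrays by 2.62 ± 0.48 and 3.34 ± 0.61. PRE2, whose product holds the chymotrypsin-like site, had ratios of 1.73 and 2.44 at 40% and 2.97 and 2.58 at 50%, against a baseline from 0.452 through 0.833 to 1.09. PRE2 rose by 1.51 ± 0.50 (adjusted p = 0.043) and 1.94 ± 0.50 (adjusted p = 0.00914).

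The other beta ring genes were not called on all arrays. At 40% their differences included 2.06 for PRE3, which carries the caspase-like site, and 0.92 for PUP1, which carries the trypsin-like site. Of the 7 beta ring genes 5 were called at 40% without the 6 arrays, namely PRE7, PRE1 (2.13 ± 0.53), PRE2, PRE4 (1.20 ± 0.35) and PUP1 (0.97 ± 0.30). The same 5 were called at 50% in that fit.

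The alpha ring genes had the smallest class median at 40%. It was 0.58 on all arrays and 0.24 without the 6, against 1.96 and 1.20 in the beta ring, and no test of the difference between classes was made. None of the 7 alpha ring genes was called by limma at 40 or 50% on all arrays, and 0 had an unadjusted p under 0.05. SCL1 was called in both without the 6 arrays (0.82 ± 0.30 at 40%, adjusted p = 0.0382).

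The lowest member at 40% was PRE6, whose ratios of 0.96 and 1.10 lay inside its baseline (0.35 ± 0.56, adjusted p = 0.714). PRE5 had a difference of 0.48 on all arrays and -0.78 without the 6 arrays, neither of them called. The lowest member at 50% was PUP2, with ratios of 2.09 and 0.0161 on the 2 arrays (-1.90 ± 1.33, adjusted p = 0.319). Its 2 arrays at 50% thus lay on either side of the whole baseline.

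Of the 6 base ATPases RPT2 and RPT6 rose at 40 and 50%. The RPT2 ratio was 2.02 and 2.13 at 40% and 2.79 and 2.06 at 50%, against a baseline from 0.218 through 0.559 to 1.04. The RPT6 ratio was 1.98 and 2.38 at 40% and 4.36 and 2.88 at 50%, against 0.143, 0.942 and 1.06. For both genes each of these 4 arrays exceeded all baseline arrays.

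RPT2, whose product opens the core particle's gate, rose by 1.98 ± 0.51 at 40% (adjusted p = 0.0104) and 2.19 ± 0.51 at 50% (adjusted p = 0.00483). On all arrays RPT6 had the largest difference of the members at 50%, 2.72 ± 0.67 (6.60-fold, adjusted p = 0.00695), after 2.01 ± 0.67 at 40% (adjusted p = 0.0436). With the 6 arrays left out RPT6 was at 1.18 ± 0.37 and 2.19 ± 0.47, below PRE7, RPN11 and RPN4 among others at 50%, and RPT4 was also called at both concentrations.

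In the base's non-ATPase part RPN2, a large scaffold, rose at 50% alone (1.49 ± 0.46, adjusted p = 0.0243). Its ratio was 3.23 and 1.60 there and 1.96 and 1.44 at 40%, all above a baseline from 0.49 through 0.833 to 1.28. RPN2 and RPN1, the scaffold that docks ubiquitin-like proteins, were both called at 40 and 50% without the 6 arrays. The ubiquitin receptor genes RPN10 and RPN13 were called in neither fit at 40 or 50%.

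Of the 8 lid genes 3 rose at both concentrations. RPN11, which encodes the deubiquitinase that strips ubiquitin from substrates, had ratios of 2.21 and 2.47 at 40% and 3.95 and 1.61 at 50%, while its 6 baseline arrays stayed between 0.236 and 0.59. RPN11 rose by 2.46 ± 0.51 (5.49-fold, adjusted p = 0.00246) and 2.57 ± 0.51 (5.93-fold, adjusted p = 0.00152), and without the 6 arrays by 2.15 ± 0.36 and 2.91 ± 0.45. All 4 arrays at 40 and 50% exceeded the baseline.

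RPN6 encodes a lid subunit that clamps the lid to the core. Its ratio was 2.38 and 2.60 at 40% and 3.66 and 1.55 at 50%, against a baseline from 0.475 through 0.601 to 1.20. It rose by 1.98 ± 0.50 (adjusted p = 0.00998) and 1.92 ± 0.50 (adjusted p = 0.00991).

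RPN3, another lid subunit, had ratios of 1.44 and 2.55 at 40% and 3.28 and 0.995 at 50%, and its second array at 50% overlapped the baseline, which reached 1.18. Among the called genes RPN3 lay nearest to the threshold, with adjusted p = 0.0471 at 40% and 0.0499 at 50%. RPN8 and RPN12 joined these 3 without the 6 arrays, at 1.45 ± 0.40 and 1.92 ± 0.36 at 40%. RPN5, RPN7 and RPN9 were called at 40 or 50% in neither fit.

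**Figure D3:**
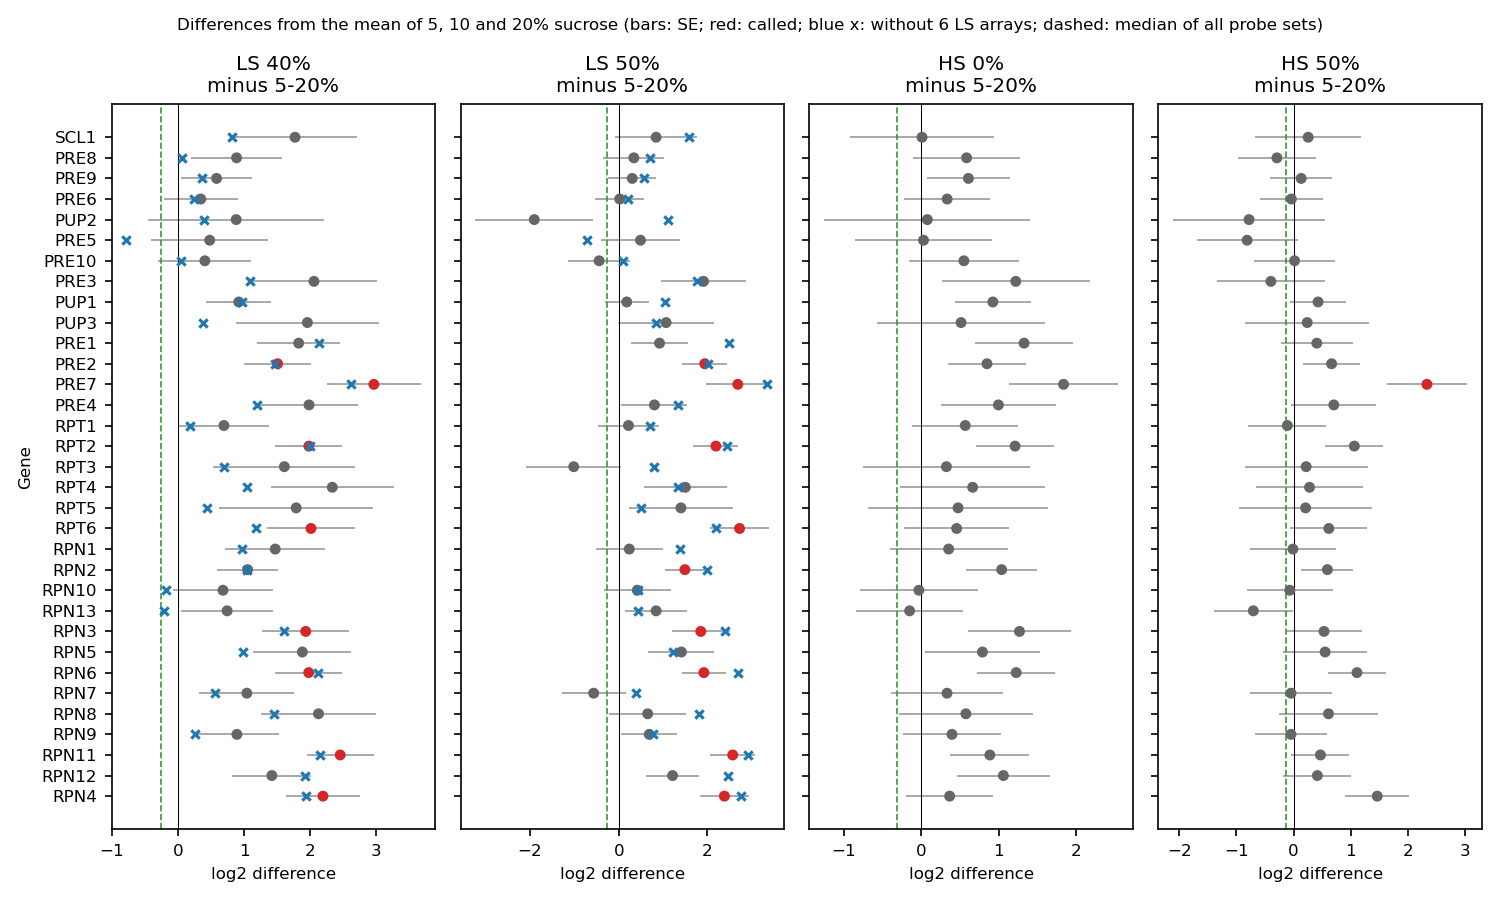
Log2 difference from the baseline of 5, 10 and 20% sucrose (x axes) for each gene (y axis) for LS at 40 and 50% and HS at 0 and 50%; points are estimates on all arrays with SE bars, red where called, crosses are estimates without the 6 LS arrays, and the dashed line is the median of all probe sets. All 33 points lie above 0 at 40% in LS, with 8 red, and in HS a single point, PRE7 at 50%, is red.

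At lower sucrose LS gave no calls. With limma 0 of the 33 genes were called without sucrose, where 0.109% of all probe sets were called in either direction, and 3 members had an unadjusted p under 0.05. At 30% 0 were called, where 0.491% of all probe sets were, and 1 member, RPN4, had an unadjusted p under 0.05. Without the 6 arrays each of these groups has a single array. The members' median difference was then 0.205 without sucrose and 0.156 at 30%. That of all probe sets was -0.177 and -0.275. When the first LS array without sucrose was left out, 2 members were called lower there. Of the 33 genes 23 had their highest LS group mean at 40% and 7 at 50%, and the same was not counted over all probe sets. The mean at 50% includes the second array, one of the 6, on which all 33 genes were lower than on the first. Without the 6 arrays the members' median difference from the baseline was 0.97 at 40% and 1.33 at 50%.

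In HS at 50% 1 of the 33 genes rose, PRE7, which is 3.03% of the members where 8% of all probe sets were called higher. The PRE7 ratio was 3.07 and 4.34, against a baseline from 0.463 through 0.703 to 1.06 with no overlap. Its difference was 2.33 ± 0.71 (5.04-fold, adjusted p = 0.0308). Without the 6 LS arrays 4 rose, PRE7, RPN4, RPN6 (1.11 ± 0.31) and RPT2 (1.06 ± 0.29), which is 12.1% where 21.4% of all probe sets were called higher. The lowest member was PRE5, with ratios of 0.435 and 1.0 (-0.81 ± 0.88, adjusted p = 0.608).

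The 2 HS arrays at 50% stood apart from each other. All 33 genes were higher on the second array, by a median of 0.85 on the log2 scale, whereas 43.3% of all probe sets were. The members' median difference from the baseline was 0.26 on both arrays, 0.72 without the first and -0.17 without the second, and no member was called without either. The PRE7 call was also lost without the first HS array at 5 or 20% or either at 10%, and 2 members were called without either LS array at 5%. For 7 of 33 genes both arrays exceeded the baseline, which is under the 24.2% of all probe sets. The PRE7 and RPN4 ratios were high on both arrays, unlike most members.

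In HS without sucrose the mean log2 ratio of most of the 33 genes lay above its mean at 5 to 20%. Both arrays exceeded all 6 baseline arrays for 15 of the 33 genes, against 19.1% of all probe sets. The median difference was 0.58, which is 0.89 above the median of all probe sets, and 31 of 33 lay above 0. On all arrays limma called 0 members, where 5.51% of all probe sets were called higher, with an unadjusted p under 0.05 for 5. Without the 6 LS arrays 9 rose, 27.3% of the members where 14.2% of all probe sets were called higher.

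The largest of these 9 was PRE7, with ratios of 2.30 and 2.89 (1.83 ± 0.43, adjusted p = 0.00629). The others were PRE1, PRE4 and PUP1 of the beta ring, RPT2 of the ATPases, RPN2 of the base and RPN3, RPN6 and RPN12 of the lid. RPN6 had ratios of 3.01 and 1.70 and RPN3 of 3.44 and 2.40. RPN4 itself differed by 0.37 ± 0.29 there (adjusted p = 0.348), and its 2 arrays lay on either side of its highest baseline value. Of the 33 genes 24 had their highest HS group mean without sucrose and 5 at 50%. How many of all probe sets had theirs there was not counted.

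At 30 and 40% sucrose HS showed no rise. At 30% 0 were called by limma, where 0.0182% of all probe sets were called in either direction, with 0 at an unadjusted p under 0.05 on all arrays and 0 without the 6. At 40% 0 were called on all arrays, where 1.55% of all probe sets were called lower, with 0 at an unadjusted p under 0.05. The median at 40% was -0.37, and 7 of 33 lay above 0.

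Without the 6 LS arrays 3 genes fell at 40% in HS, 9.09% of the members where 12.1% of all probe sets were called lower. They were PRE3 (ratios 0.287 and 0.568, -1.57 ± 0.51, adjusted p = 0.0455), PRE5 (0.38 and 0.562, -1.33 ± 0.38, adjusted p = 0.0284) and PUP2 (0.461 and 0.762, -1.25 ± 0.37, adjusted p = 0.033). For 7 genes both arrays lay below all baseline arrays, against 21.6% of all probe sets.

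**Figure D4:**
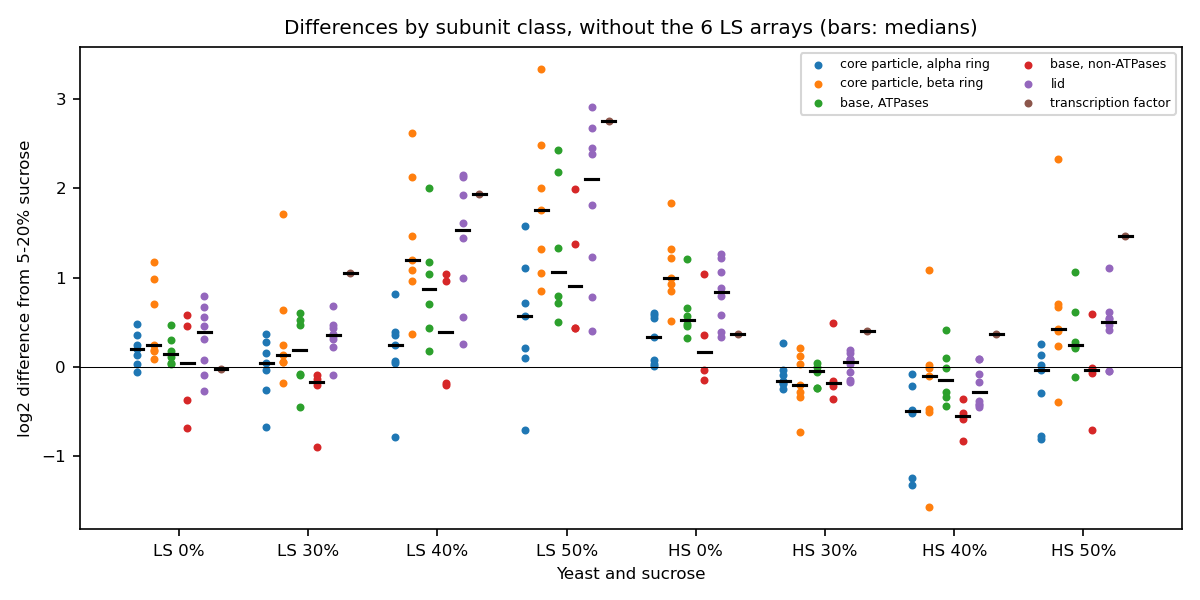
Log2 difference from the baseline of 5, 10 and 20% sucrose (y axis) by yeast and sucrose (x axis), without the 6 LS arrays; each point is a gene, coloured by subunit class, and bars are class medians. In LS at 40% the beta ring and lid medians, 1.20 and 1.53, lie above the alpha ring's 0.24, and at 40% in HS all class medians of the subunits are below 0.

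The response to 40% sucrose was compared between the yeasts as HS minus LS. All 33 members had a smaller response in HS, with a median of -1.83 where the median of all probe sets was 0.12. On all arrays limma called 0 of the 33, where 0.309% of all probe sets were called lower, with an unadjusted p under 0.05 for 12. With the 6 arrays left out 14 were called lower in HS, 42.4% of the members where 12.8% of all probe sets were.

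These 14 were RPN4 (-1.57 ± 0.43, adjusted p = 0.0211), the alpha ring genes SCL1 and PUP2, the beta ring genes PRE1, PRE2 and PRE3, RPT2 and RPT6, RPN1 and RPN2, and the lid genes RPN3, RPN6, RPN11 and RPN12. RPN6 had the lowest adjusted p (-2.30 ± 0.47, 0.00607), with ratios at 40% of 2.38 and 2.60 in LS and 0.938 and 0.784 in HS. The largest was PRE3, at -2.66 ± 0.76, where the LS ratios were 1.78 and 2.11 and the HS ratios 0.287 and 0.568. At 40% itself both LS ratios exceeded both HS ratios for 25 of the 33 genes, against 32% of all probe sets. The reverse was true for 0 of the 33 genes, against 33.5% of all probe sets.

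At 50% the median difference of the responses was -0.73 on all arrays and -1.05 without the 6, against -1.18 without the 6 at 40%. A single array turned its sign, as it was 0.23 without the first LS array at 50% and -1.54 without the second. On all arrays limma called 0 members, where 0.182% of all probe sets were called lower, with an unadjusted p under 0.05 for 2. Without the 6 arrays RPN11 (-2.44 ± 0.56, adjusted p = 0.0175) and RPN12 (-2.04 ± 0.56, adjusted p = 0.0352) were called lower in HS, 6.06% of the members where 6.04% of all probe sets were. For RPN4 the difference was -0.92 ± 0.79 on all arrays (adjusted p = 0.741) and -1.29 ± 0.50 without the 6 (adjusted p = 0.108).

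As a mean over the 7 concentrations, 4 members were higher in HS than in LS and 0 lower. This is 12.1% of the members, where 4.06% of all probe sets were called higher and 625 of 5498 lower. The 4 were RPN8 of the lid (1.57 ± 0.40, adjusted p = 0.014), RPT4 (1.37 ± 0.43, adjusted p = 0.0383), RPN13 (0.97 ± 0.32, adjusted p = 0.0468) and RPN5 (1.02 ± 0.34, adjusted p = 0.0494). The lowest difference was that of PRE7, -0.06 ± 0.33.

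Without the 6 LS arrays the median over the members moved from 0.50 to 0.08 and RPN8 alone was called (0.81 ± 0.20, adjusted p = 0.0103), where 10.2% of all probe sets were called higher. The RPN8 ratio at 5 to 20% was 0.419, 0.70 and 0.511 on the first LS replicates and 0.991, 0.924 and 1.43 on the first HS replicates. The count was 1 in 8 repeats that left out an LS array and in 13 that left out an HS array, and it was 10, 8 and 11 without the first LS array at 0, 10 and 50%.

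The span of a gene between its highest and its lowest group mean over the 7 concentrations had a median over the members of 1.08 on the log2 scale in HS, against 1.59 over all probe sets, and of 2.43 in LS, against 2.52. The narrowest span in HS was that of PRE6, 0.55, and the widest were PRE3 at 2.79 and PRE7 at 2.44. These spans are descriptions, and those of LS include the 6 arrays.

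Another 38 genes that build, regulate or feed the proteasome were measured. At 40% in LS 6 rose and 1 fell on all arrays, where 9.73% of all probe sets were called higher and 8.17% lower. Those with the largest change were YAP1, an activator of stress genes that also acts on the RPN4 promoter (2.68 ± 0.69, adjusted p = 0.0115), NAS6, a chaperone of base assembly (2.49 ± 0.65), DOA4, a deubiquitinase that recycles ubiquitin (2.20 ± 0.58), and DDI1, a ubiquitin-binding shuttle protein (2.16 ± 0.66). The YAP1 ratio was 3.28 and 5.30 at 40% against a baseline of 0.292, 0.478 and 1.76. Without the 6 arrays 14 rose and 5 fell, where 22% of all probe sets were called higher and 31.9% lower.

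At 50% in LS 5 of the 38 rose and 1 fell, where 11% were called higher and 11.1% lower among all probe sets. DDI1 rose by 3.36 ± 0.66 (adjusted p = 0.0015), with ratios of 9.37 and 9.12 against a baseline from 0.503 through 1.01 to 1.17. Without the 6 arrays its difference was 3.74 ± 0.71. Both DDI1 arrays at 50% lay above its baseline. With the 6 arrays left out 15 rose and 6 fell, where 22.9% and 26.8% of all probe sets were called higher and lower.

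The chaperones of proteasome assembly did not move one way. In LS at 40% without the 6 arrays the chaperones of the core's alpha ring were called lower, with log2 differences of -1.18 ± 0.32 for PBA1, -1.30 ± 0.26 for ADD66, -1.10 ± 0.30 for IRC25 and -1.46 ± 0.29 for POC4. The base chaperones NAS2 (2.19 ± 0.31) and NAS6 (1.95 ± 0.36) were called higher, while HSM3 and RPN14, at 0.59 ± 0.33 and 0.83 ± 0.41, were not called. These 8 genes were singled out after their values had been seen. On all arrays NAS6 and ADD66 (-1.35 ± 0.45, adjusted p = 0.0408) were called among them.

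At 50% in LS POC4 fell by 4.24 ± 0.66 on the log2 scale on all arrays (adjusted p = 0.000216). Its ratio was 0.216 and 0.0371 there and 0.617 and 0.451 at 40%, against a baseline from 0.845 through 1.40 to 8.01, so that these 4 arrays lay below all 6 baseline arrays. The difference of POC4 at 50% was -2.75 ± 0.36 without the 6 arrays (adjusted p = 0.000114). UMP1, which matures the core's beta subunits, was called in neither fit at 40% (0.10 ± 0.77 and -0.66 ± 0.43) or 50%. UBI4, the stress-inducible polyubiquitin gene, had ratios of 4.85 and 3.13 at 40% and was called there without the 6 arrays (1.76 ± 0.60, adjusted p = 0.0257; on all arrays 3.07 ± 1.08, adjusted p = 0.0536).

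In HS at 50% NAS6 was the single gene of the 38 called on all arrays (2.40 ± 0.65, adjusted p = 0.0171), with ratios of 2.80 and 3.83 against a baseline from 0.455 to 0.711. Of all probe sets 8% were called higher there. Without the 6 LS arrays 12 rose and 1 fell, where 21.4% of all probe sets were called higher and 1426 of 5498 lower. UBI4 (1.82 ± 0.53) was among those that rose, and YAP1 was at 1.67 ± 0.33. In HS without sucrose DDI1 (2.65 ± 0.66, adjusted p = 0.0149) and ECM29, a proteasome-binding adaptor (2.59 ± 0.77, adjusted p = 0.041), rose. These were the 2 genes called on all arrays, where 5.51% of all probe sets were called higher. There 16 rose and 3 fell without the 6 arrays, where 14.2% of all probe sets were called higher and 20% lower. One of the 16 was BLM10, an alternative activator of the core (2.51 ± 0.41, adjusted p = 0.00065), with ratios of 4.16 and 3.19.

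**Figure D5:**
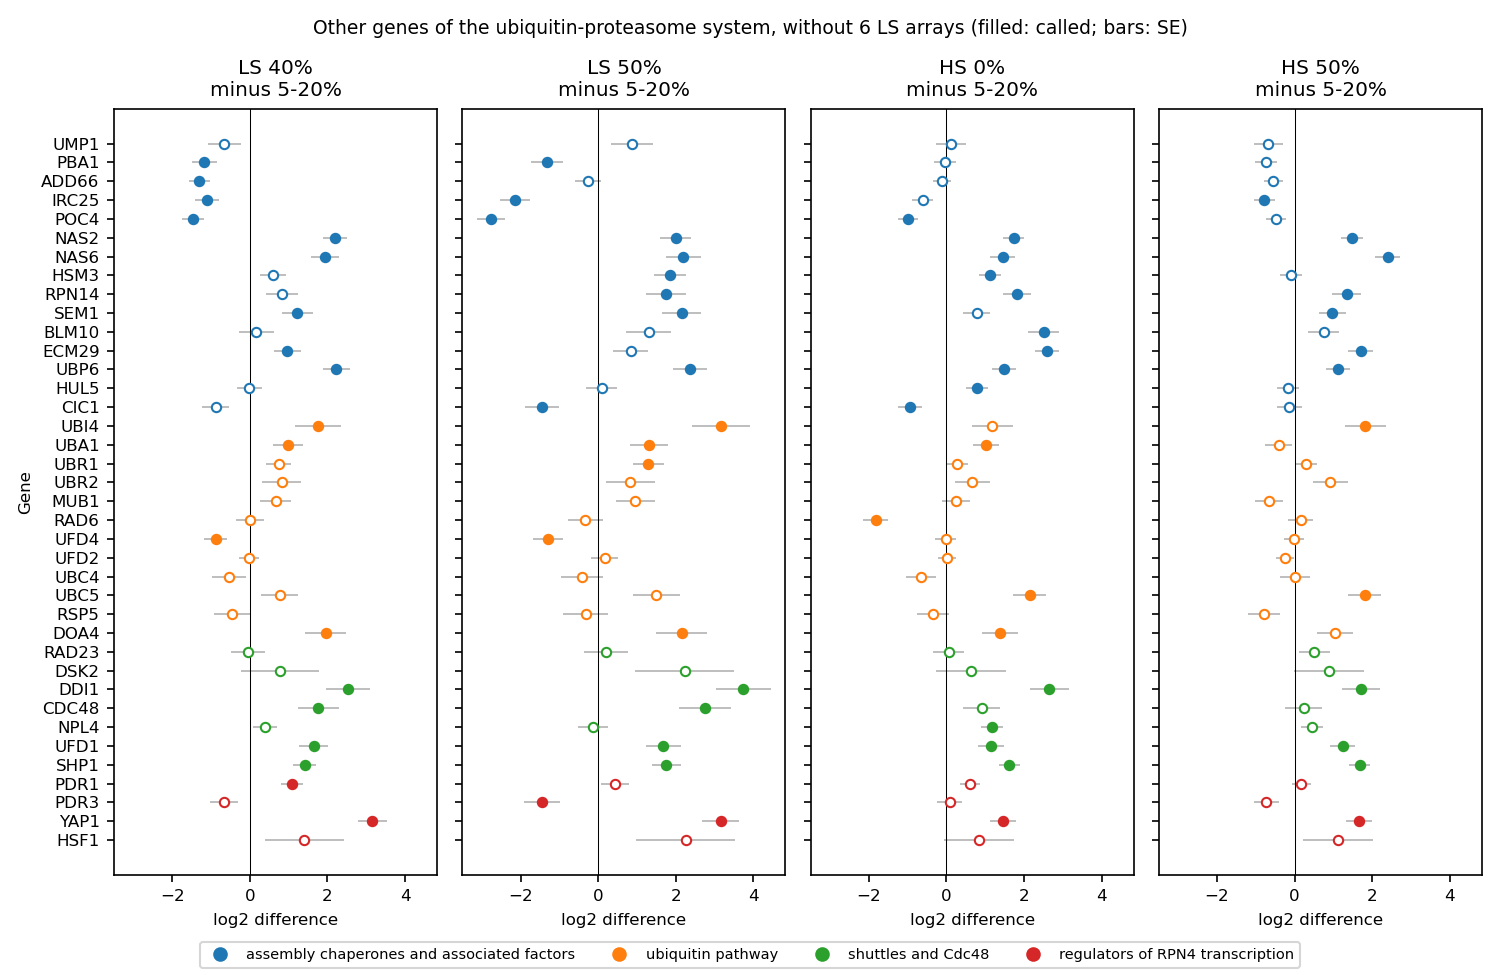
Log2 difference from the baseline of 5, 10 and 20% sucrose (x axes, the same scale in each) for the 38 other genes (y axis) for LS at 40 and 50% and HS at 0 and 50%, without the 6 LS arrays; points are estimates with SE bars, filled where called, coloured by gene list. POC4 and IRC25 lie left of 0 in each of these comparisons and NAS2 and NAS6 right of it.

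Of the other genes tied to RPN4, UBR2, part of the ubiquitin ligase that marks Rpn4 for degradation, was not called in either yeast at 40 or 50% sucrose. As a mean over the concentrations UBR2 was lower in HS than in LS (-1.73 ± 0.47, adjusted p = 0.019 and -0.74 ± 0.25, adjusted p = 0.0428 without the 6 arrays). Its ratio reached 8.86 to 12.5 on the second LS arrays at 0, 5, 10 and 30%, which are among the 6. HSF1, the heat shock transcription factor, was called at 40 or 50% in neither yeast and neither fit, and its ratio ran from 0.215 to 2.50 on HS arrays. CDC48, the segregase that extracts ubiquitin-tagged proteins, was called in LS at 40% without the 6 arrays (1.76 ± 0.53, adjusted p = 0.0141; on all arrays 2.51 ± 1.38, adjusted p = 0.227).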

How the data were processed

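The deposited value is a ratio on a linear scale. Per the series design text, the authors normalized each chip on its positive genes without S. pombe and then each gene, in GeneSpring 7.0; how a set's probes were combined was not given in the sources used here. The deposited ratio of each of the 33 genes had a median over the 28 arrays within 0.006 of 1. Member ratios ran from 0.0161 to 8.35. Symbols came from the platform's annotation and current gene tables.

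Log2 ratios of 5498 S. cerevisiae probe sets with 1 symbol were fitted with limma 3.58.1 under R 4.3.3, with 1 mean for each of the 14 groups, moderated variances, Benjamini-Hochberg adjustment over all 5498 and a threshold of 0.05. No filter on low values was used. The fit was run on simulated data with changes placed in HS without sucrose alone. The simulated noise was independent and equally wide on all arrays of a gene, unlike that of the 6 LS arrays. The LS comparisons were therefore not tested by it. Figures used matplotlib 3.10.9. The members, lists, baseline and tests were chosen with earlier results of these data known, and so was the omission of the 6 LS arrays. The genes given in full are RPN4, members called or at either end of a comparison, and at most 4 called genes of the other lists per comparison. Alternatives were quantile normalization, median centring, an offset of 0.216 before the log, trend and robust moderation, a replicate block, fewer arrays in the fit, 5% alone as baseline and leaving out arrays. Promoter and protein sequences were not used here.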

Additional observations from a re-analysis of the deposited data

How the results depend on the processing

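Counts are of the 33 genes called. At 40% in LS, 8 called became 17 without the 6 LS arrays, 4 against 5% alone, and 0 both with only the compared groups in the fit and with each yeast fitted alone; leaving out 1 array gave 0 to 11. At 50% in LS, 9 became 17, 0 and 0 under the first and the last 2 of these and 5 under quantile normalization, with 4 to 10 when 1 array was left out. In HS without sucrose, 0 became 4 under quantile normalization, 10 with only the compared groups, 8 with HS fitted alone and 9 without the 6 arrays. At 40% in HS, 0 became 3, 2 and 3 lower under these last 3. At 50% in HS, 1 became 2 under quantile normalization, median centring or the offset, 4 under each of these last 3, and 0 against 5% alone, with 0 to 2 when 1 array was left out. For HS minus LS over the concentrations, 4 became 10 under quantile normalization and 1 without the 6 arrays (1 to 11 when 1 array was left out), and the difference of the responses went from 0 to 14 at 40% and 2 at 50%. LS without sucrose gave 0 to 2. The number of all probe sets called higher, of 5498, also changed with the setting. Under quantile normalization it went from 607 to 264 at 50% in LS and from 303 to 603 in HS without sucrose. It went from 440 to 734 at 50% in HS and from 223 to 646 for HS minus LS over the concentrations. For the fits of fewer groups, the offset, 5% alone and 1 array left out it is not given here. The cause of these changes was not tested.

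Replicate numbers do not pair the arrays in the labels. Deviations of same-numbered arrays correlated at -0.279 to 0.714 over 91 pairs of groups, above 0.1 in 42. With the replicate block 11 genes were called at 40% and 9 at 50% in LS, 1 at 50% in HS and 4 between the yeasts. Of 22 calls of a gene in a comparison, 0 turned direction under any alternative. Of their repeats, 587 kept the call and 215 lost it. Only genes called on all arrays were followed, and most repeats left out 1 array, so the tally says nothing of the other members. The members' median difference at 50% in LS went from 0.84 to -0.04 without the first LS array there. Averaging probe sets was not run, as each gene has 1. The number of arrays, 2 a group, limits what could be called.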
